A study of Mus musculus with 9 samples.

Results

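Islets cultured at 35 mM glucose were compared with islets cultured at 11.8 mM, the extremes of a series of 3 concentrations. All samples carrying these 2 concentrations in their titles were taken, which gave 6 of the 9 samples (3 at each concentration) and 18 of the 27 barcoded sub-libraries. Every gene of the count table was considered, 22048 in all, of which 9739 passed the filter on low counts and were tested. Both groups were islets isolated from mice of the outbred strain ICR and kept for 3 days in RPMI medium with 10% fetal bovine serum, with no genetic change or drug named in the labels, and the added glucose is the labelled difference. The study set 11.8 mM as its control and 35 mM as extreme hyperglycemia, and it asked how such glucose alters the expression program of islet cells. For the highest group the treatment text says 25 mM, but titles, characteristics and design say 35 mM, which was followed. The labels name no osmotic control, and glucose itself and the osmotic load of 35 mM cannot be told apart here. The islets came from 9 mice, but the labels do not say that each library is a separate mouse, so that the spread behind the p-values may be technical.

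Islets are small endocrine organs in which insulin-secreting beta cells outnumber the alpha, delta and PP cells. Glucose enters beta cells, is phosphorylated by glucokinase and burned, and the resulting rise of ATP closes potassium channels, admits calcium and releases the dense-core granules that hold insulin, Iapp and granin proteins. The same metabolites reach the nucleus through ChREBP, a transcription factor that pairs with Mlx on a tandem E-box known as the carbohydrate response element. Granule cargo is made on the endoplasmic reticulum, loses its signal peptide there and is cut to active hormone by convertases. Expression was measured with CEL-Seq2, which tags the 3' end of transcripts, and values are counts scaled to a fixed library total (CPM) on library sizes scaled by TMM, a correction for differing RNA composition. A CPM compares a gene between libraries; it is not used to rank one gene against another.

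The libraries compared were of similar depth, with 3303046 to 4559561 gene counts at 11.8 mM and 3472937 to 3614552 at 35 mM. Correlations of log CPM between libraries were 0.954 to 0.9568 within 11.8 mM, 0.9588 to 0.9644 within 35 mM and 0.9455 to 0.9607 between the concentrations, so no library stood apart by this measure. The leading transcripts were those of islets. The summed share of 8 beta cell markers, mostly the insulin genes, was 50.9% to 58.8% of gene counts at 11.8 mM and 51.9% to 56.3% at 35 mM, with Mafa at 0 in all 6 libraries. Whether Mafa RNA was absent or was missed in capture or counting was not tested. Shares of alpha markers were 1.49% to 2.03% and 1.4% to 1.68%, of delta markers 1.03% to 1.99% and 1.6% to 1.68%, and of the PP hormone gene Ppy 0.363% to 0.611% and 0.44% to 0.572%. Genes of digestive enzymes, which come from the acinar cells around islets, took 0.374% to 1.38% and 0.746% to 1.24%, with no member at 0. Duct markers took 0.0285% to 0.043% at 11.8 mM and 0.0441% to 0.0539% at 35 mM, and these 2 ranges did not overlap. Fibroblast and stellate markers took 0.0352% to 0.0691% and 0.0292% to 0.0497%, macrophage and immune markers 0.0155% to 0.019% and 0.0115% to 0.0219%, and neural and Schwann markers 0.00187% to 0.00388% and 0.00179% to 0.00646%. Endothelial markers were near the floor, with 191 counts over the 3 libraries at 11.8 mM and 112 over those at 35 mM. In these bulk samples, fewer cells of a type and less RNA per cell cannot be told apart.

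**Figure D1:**
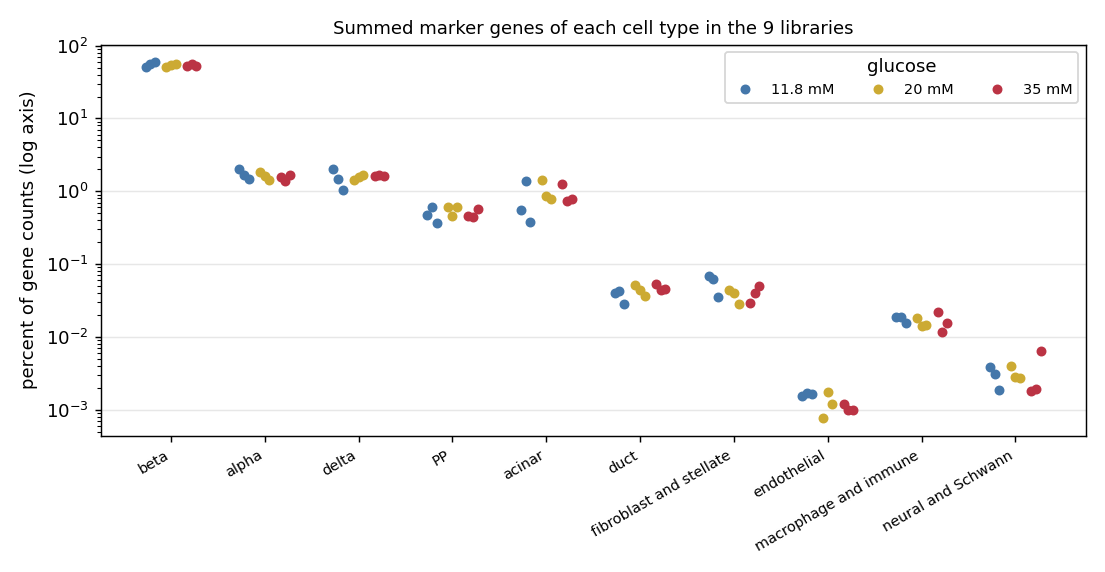
Summed share of gene counts (percent, log axis) taken by the markers of each cell type in each of the 9 libraries, one point a library, coloured by glucose concentration. The beta cell share stands at 50.9% to 58.8% and 51.9% to 56.3%, and the duct and endothelial shares are those whose libraries do not overlap between the concentrations.

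Across the 9739 genes tested, 61 rose and 23 fell at 35 mM, 0.626% and 0.236% of those tested, 0.863% in all, by edgeR's quasi-likelihood test at a Benjamini-Hochberg adjusted p under 0.05. The median log2 fold change over all genes tested was 0, with 4831 values above 0 and 4908 below. In 1453 genes, or 14.9%, the 3 libraries at one concentration did not overlap those at the other, and this holds for all 84 called genes. Of the 84, 32 changed by more than 2-fold. All 84 kept their direction in 19 alternative analyses. These refit the same counts, and with libraries that do not overlap a reversal was hardly possible, so this adds no support. A call in every alternative that tested the gene was kept by 29 of them (27 rises and 2 falls). Libraries carry the replicate numbers of the labels, and where a call named below is lost when 1 library is left out, that library is given. With acinar content as a covariate 41 of the 61 rises and 11 of the 23 falls kept their calls. Counts of called list members below are set beside the shares of all genes tested, 0.626% for rises and 0.236% for falls. In lists as short as these, 1 called gene is enough to exceed those shares. The lists were chosen with earlier results of these data known. Their members were not matched to all genes tested in read number, so a higher share is a description and not independent evidence. The libraries at 20 mM took part in the fit through the shared estimate of spread, and their levels are set beside some genes as a description.

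**Figure D2:**
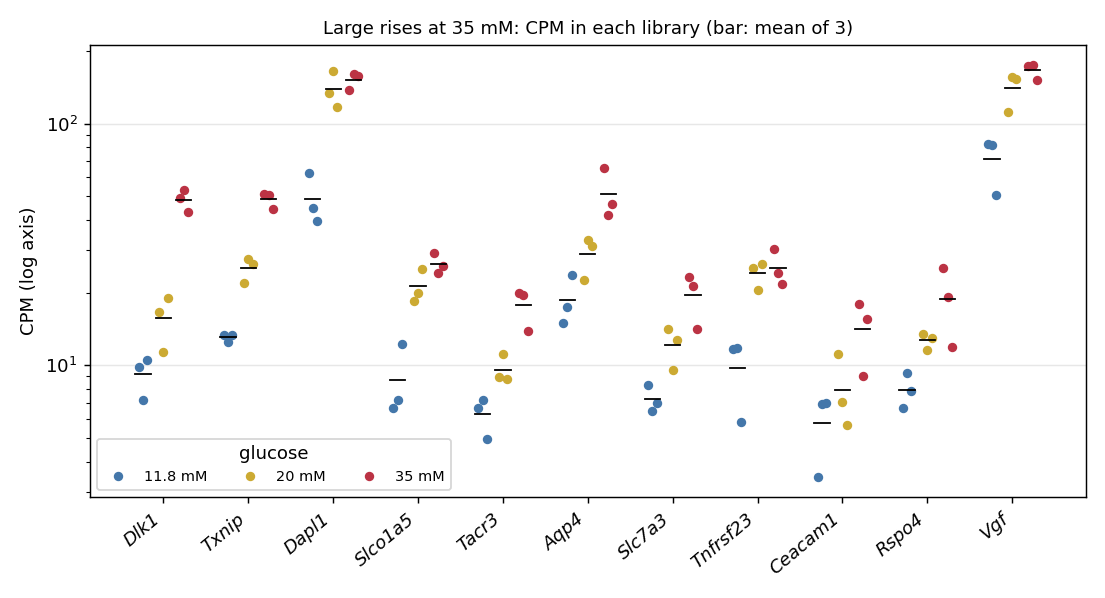
CPM (log axis) of large called rises at a mean of 10 CPM or more, one point for each library at 11.8, 20 and 35 mM, replicates 1 to 3 from left to right. For every gene drawn the 3 libraries at 35 mM lie above the 3 at 11.8 mM, and Dlk1 rises from 7.18 to 10.5 CPM at 11.8 mM to 42.9 to 53.1 at 35 mM.

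The glucose-responsive arrestin genes Txnip and Arrdc4 rose. Txnip encodes a thioredoxin-binding protein of the alpha-arrestin family that curbs glucose uptake, and its gene is a textbook target of ChREBP. Txnip stood at 13.3, 12.5 and 13.4 CPM in the 11.8 mM libraries and at 51.3, 50.8 and 44.3 CPM at 35 mM. The lowest library at 35 mM was thus above 3 times the highest at 11.8 mM, and the 20 mM libraries lay between, at 21.9, 27.5 and 26.2 CPM. The log2 fold change was 1.90 ± 0.18 (SE; adjusted p = 2.55e-08). Arrdc4, a related arrestin-domain gene, had 4.26, 3.24 and 4.66 CPM at 11.8 mM and 11.0, 9.87 and 10.8 CPM at 35 mM. Its libraries were well apart and close to each other within a concentration, with a log2 fold change of 1.39 ± 0.30 (adjusted p = 0.0112). The Arrdc4 call was lost without 11.8 mM library 2 (1.24, adjusted p = 0.0657) or without 35 mM library 1 (1.35, adjusted p = 0.0653). Txnip kept its call in all 19 alternatives. A gene on the other strand overlaps exons of Txnip, and the counting strand is not given in the sources used here, so its count is uncertain to that extent.

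The stretches upstream of these genes are shown because the carbohydrate response element is a sequence feature that can be looked for. They are the bases before the RefSeq transcription start on GRCm38.p6, written 5' to 3' on the gene's strand. Txnip lies on chromosome 3 at 96557957 to 96561883 on the plus strand, and its stretch is chr3:96557707-96557956. The capitals mark a match to the tandem E-box CACGNGNNNNNCACGNG, 69 to 85 bases before the start. Arrdc4 lies on chromosome 7 on the minus strand, its stretch is chr7:68749239-68749488, and the capitals mark the E-box CACGTG, 188 to 193 bases before the start.
Txnip: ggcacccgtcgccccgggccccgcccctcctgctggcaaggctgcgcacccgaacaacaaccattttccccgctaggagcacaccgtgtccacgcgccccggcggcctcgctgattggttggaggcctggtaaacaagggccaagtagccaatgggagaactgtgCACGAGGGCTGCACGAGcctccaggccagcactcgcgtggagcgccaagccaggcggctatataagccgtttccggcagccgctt
Arrdc4: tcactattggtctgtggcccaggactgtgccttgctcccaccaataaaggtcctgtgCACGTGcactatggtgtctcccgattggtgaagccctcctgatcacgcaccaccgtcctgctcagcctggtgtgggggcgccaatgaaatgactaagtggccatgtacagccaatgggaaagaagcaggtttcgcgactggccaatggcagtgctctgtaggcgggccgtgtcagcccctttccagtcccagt
Both strands were searched, from 250 bases before to 50 after the start. The tandem motif was found in 16 of 32851 mouse windows (0.0487%), in 1 of 58 windows of risen genes, that of Txnip, and in 0 of 20 of fallen genes. Arrdc4 thus had no match to it. This pattern is a direct repeat of CACGNG, so carbohydrate response elements whose second part is written otherwise were missed. The counts are those of this pattern alone. The single E-box, which is a shorter motif that a tandem match can contain, was found in 2349 windows (7.15%). It was in 5 of the 58 windows of risen genes, a share near that of all windows, and in 0 of the 20 of fallen genes. The 5 were those of Arrdc4, Cck, Ceacam1, Fkbp11 and Rspo4. Windows were at hand for 44 of the 61 risen and 17 of the 23 fallen genes. A match describes letters and does not show that a factor binds there.

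Of 13 tested genes on a list of ChREBP targets, Txnip and Arrdc4 rose (15.4% against 0.626% of all genes tested), none fell, and 10 had a value above 0 (median log2 fold change 0.38, against 0 over all genes tested). Klf10, a transcription factor gene, stood at 2.13, 3.47 and 0.291 CPM at 11.8 mM and 6.44, 6.97 and 4.83 at 35 mM, values that do not overlap but that did not pass (1.55 ± 0.44; adjusted p = 0.107). Pklr, the pyruvate kinase gene of liver and islets, had 0.83 ± 0.32 (adjusted p = 0.308). Mlxipl, which encodes ChREBP, had -0.28 ± 0.15 (adjusted p = 0.542), with 80.0, 69.4 and 91.2 CPM at 11.8 mM against 74.3, 60.4 and 62.5, ranges that overlap.

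Of 12 tested precursors of neuropeptides and gut hormones, 5 rose and none fell (41.7% against 0.626% of all genes tested; median 0.39). The 5 were Pdyn, Vgf, Cck, Nucb2 and Gast. Pdyn encodes prodynorphin, the precursor of dynorphin opioid peptides. It had 171.9, 182.4 and 136.6 CPM at 11.8 mM and 400.1, 330.4 and 340.0 at 35 mM. The 20 mM libraries, at 378.1, 392.7 and 354.2 CPM, lay in the same range as those at 35 mM. The log2 fold change of Pdyn was 1.12 ± 0.14 (adjusted p = 5.85e-06). Vgf, a granule protein cut into several peptides, stood at 82.1, 81.7 and 50.7 CPM against 173.3, 174.2 and 152.0, with library 3 the lowest at both concentrations (1.22 ± 0.16; adjusted p = 6.7e-05). Nucb2, the nesfatin precursor gene, was nearly constant at 11.8 mM with 50.6, 49.3 and 50.4 CPM and stood at 75.9, 85.4 and 89.5 at 35 mM (0.74 ± 0.15; adjusted p = 0.00637). These 3 genes kept their calls in all 19 alternatives.

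Cck and Gast encode cholecystokinin and gastrin, sister peptides of the gut that act on shared receptors. Both were scarce, with 8 to 18 reads of Cck and 7 to 23 of Gast in a library at 11.8 mM. Cck had 3.73, 4.17 and 2.33 CPM at 11.8 mM and 13.1, 9.29 and 17.0 at 35 mM, an increase of 3.78-fold with wide spread among the high libraries (1.92 ± 0.34; adjusted p = 0.00207). Gast stood at 4.26, 5.32 and 2.04 CPM against 9.66, 12.8 and 10.2 (1.45 ± 0.34; adjusted p = 0.0241). The call of Cck held in all alternatives, whereas that of Gast was lost without 11.8 mM library 3 (1.16, adjusted p = 0.185) and without 35 mM library 1 (0.0652), 2 (0.151) or 3 (0.0566), and with acinar content as a covariate (0.0635). Cckar, the gene of a cholecystokinin receptor, had 1.07 ± 0.40 and did not pass (adjusted p = 0.302). Among 17 tested genes on a list of dedifferentiation markers and genes that beta cells normally keep low, Cck and Gast are the members that rose (11.8% against 0.626% of all genes tested), and none fell (median 0.36). Serpina7, a thyroxine-binding globulin, had 1.18 ± 0.42 (adjusted p = 0.259) and Gc, the vitamin D binding protein, 0.44 ± 0.16 (adjusted p = 0.259). Of the remaining precursors, Ucn3, the urocortin of mature beta cells, stood at 422.7, 364.1 and 468.4 CPM in the 11.8 mM libraries and at 301.1, 318.2 and 317.9 in the 35 mM libraries. Those libraries did not overlap, but the value of -0.42 ± 0.13 did not pass (adjusted p = 0.178).

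Upstream stretches of Cck and of the secretory pathway genes Chgb and Pcsk1 are shown because all 3 genes rose and each holds a searched motif near its start. Cck lies on chromosome 9 on the minus strand, and its stretch is chr9:121495695-121495844, with the single E-box in capitals and no match to the tandem motif. Chgb is on chromosome 2, plus strand, with the stretch chr2:132781492-132781641, and Pcsk1 on chromosome 13, plus strand, with the stretch chr13:75089707-75089856. In the latter pair the capitals mark TGACGTCA, the cyclic AMP response element, 65 to 72 and 71 to 78 bases before the RefSeq start.
Cck: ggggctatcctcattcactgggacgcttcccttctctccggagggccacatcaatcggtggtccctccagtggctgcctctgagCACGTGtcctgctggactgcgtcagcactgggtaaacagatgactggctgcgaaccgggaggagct
Chgb: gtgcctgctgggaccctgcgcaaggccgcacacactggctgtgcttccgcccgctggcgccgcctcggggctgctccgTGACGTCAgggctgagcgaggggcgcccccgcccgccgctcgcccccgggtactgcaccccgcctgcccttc
Pcsk1: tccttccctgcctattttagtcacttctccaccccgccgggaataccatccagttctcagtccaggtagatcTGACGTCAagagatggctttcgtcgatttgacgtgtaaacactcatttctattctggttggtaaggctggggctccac
TGACGTCA, which reads the same on both strands, was found in 588 of all windows (1.79%), in 3 of the 58 of risen genes (Chgb, Pcsk1 and Shisa5) and in 1 of the 20 of fallen genes (Btg2).

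Proteins of the dense-core granule rose in part. Of 18 tested granins, granule membrane and cargo genes, 5 rose and 1 fell (27.8% and 5.56%, against 0.626% and 0.236% of all genes tested; median 0.15). Besides Vgf these were Chgb, Ptprn, Iapp and Scg3, and the gene that fell was Resp18. Chgb, which encodes the granule matrix protein chromogranin B, had 968.5, 896.7 and 750.2 CPM at 11.8 mM and 1598.2, 1376.5 and 1529.7 at 35 mM (0.78 ± 0.13; adjusted p = 7.84e-04). Ptprn, the granule membrane protein IA-2 known as an autoantigen of type 1 diabetes, stood at 769.2, 652.1 and 477.2 CPM against 1144.2, 1126.8 and 982.9 (0.78 ± 0.14; adjusted p = 0.00285). In both genes library 3 was the lowest of the 11.8 mM libraries and the concentrations were clearly apart. Scg3, a granin that holds chromogranin A at the granule membrane, had 927.7, 766.6 and 831.4 CPM at 11.8 mM and 1275.7, 1321.6 and 1195.9 at 35 mM (0.59 ± 0.13; adjusted p = 0.0129). Its call was lost without 11.8 mM library 2 (adjusted p = 0.0885) or 3 (0.0502) and without 35 mM library 1 (0.0794) or 2 (0.123).

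Iapp encodes amylin, the peptide released with insulin. It had 13866.9, 14044.9 and 13219.7 CPM at 11.8 mM and 21016.9, 20680.0 and 21780.6 at 35 mM. Within a concentration the libraries were close, and those at 20 mM fell between, at 19333.3, 16365.3 and 18173.0 CPM. The log2 fold change of Iapp was 0.63 ± 0.13 (adjusted p = 0.00865), with the call lost without 11.8 mM library 2 (0.64, adjusted p = 0.0503), without 35 mM library 2 (0.64, adjusted p = 0.0567) and with acinar content as a covariate (0.60, adjusted p = 0.0663). The insulin genes, whose products share the granule, did not pass. Ins1 had 193566.9, 228414.2 and 222626.3 CPM at 11.8 mM and 243669.7, 239089.6 and 207470.4 at 35 mM (0.10 ± 0.14), and the ranges overlap. Ins2 had 239812.9, 338363.1 and 414253.7 CPM against 218223.4, 330815.4 and 293124.1 (-0.24 ± 0.17), a spread among libraries of one concentration that exceeds the difference between the means. Part of this spread lies between sub-libraries of a sample. In 35 mM library 1, Ins2 took 29.2%, 28.9% and 10.6% of gene counts in the 3 sub-libraries. In 11.8 mM library 1, Ins1 took 26.1%, 26.5% and 11.8%. Resp18, a granule protein related in sequence to the lumenal part of Ptprn, had 246.8, 337.5 and 363.3 CPM at 11.8 mM and 210.4, 217.2 and 201.1 at 35 mM. It fell by 0.59 on the log2 scale (adjusted p = 0.0255), with the call lost without 11.8 mM library 2 (adjusted p = 0.0895) or 3 (0.182) or without any library at 35 mM (0.132, 0.115 and 0.115), and with acinar content as a covariate (0.0586). Genes on the other strand overlap exons of Ptprn and Resp18, so both counts are uncertain where the strand was not used.

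**Figure D3:**
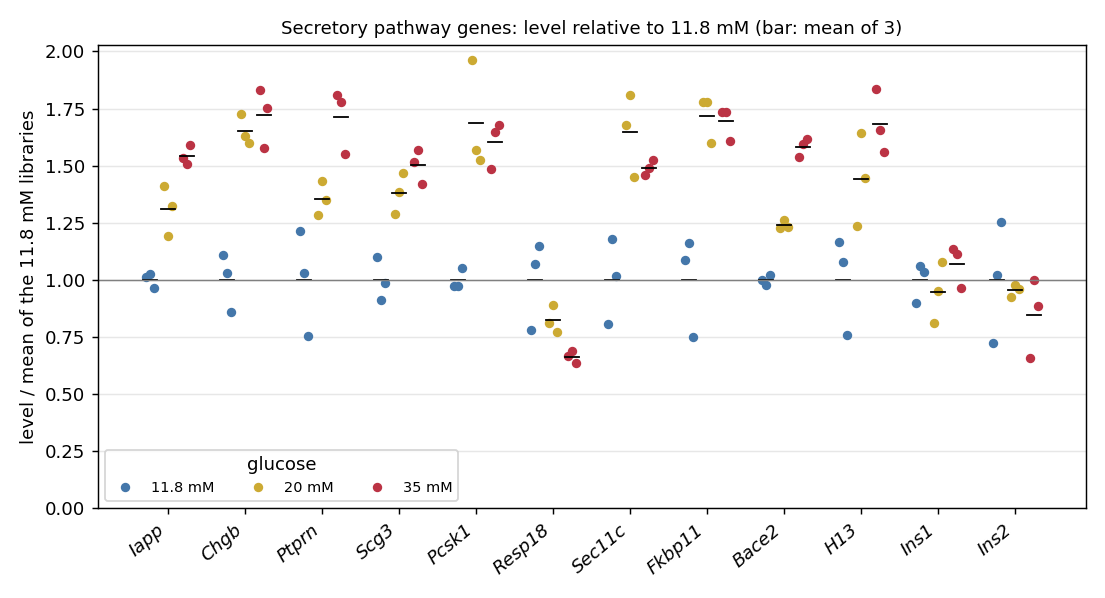
Level of secretory pathway genes in each library divided by the gene's mean at 11.8 mM (linear axis from 0), one point a library at 11.8, 20 and 35 mM, with bars at the means of 3. The 35 mM libraries lie above the 11.8 mM libraries in the genes drawn that rose and below them in Resp18, and they overlap them in Ins1 and Ins2.

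The convertase Pcsk1, which makes the first cut of proinsulin, rose. Its libraries stood at 121.0, 121.3 and 130.8 CPM at 11.8 mM and at 184.9, 204.7 and 208.5 at 35 mM (0.68 ± 0.13; adjusted p = 0.005), and the call held in all 19 alternatives. It was the 1 of 11 tested prohormone processing enzymes that rose, and none fell (9.09% against 0.626% of all genes tested; median 0.15). Pcsk2, the second convertase, had 0.27 ± 0.13 (adjusted p = 0.466), and Pam, which amidates peptides, 0.41 ± 0.13 (adjusted p = 0.153). Of 24 tested subunits of signal peptidase and the endoplasmic reticulum translocon, 22 had a value above 0 (median 0.25). Between the concentrations 13 did not overlap (54.2%, against 14.9% of all genes tested), yet only Sec11c passed (4.17%, against 0.626% for rises). Sec11c is a catalytic subunit of signal peptidase, and it stood at 1523.1, 2222.6 and 1916.9 CPM against 2758.5, 2813.1 and 2877.9. The 35 mM libraries were tight and the 11.8 mM libraries spread (0.58 ± 0.14; adjusted p = 0.0325). The call was lost without 11.8 mM library 1 (0.44, adjusted p = 0.0802) or 3 (0.0785), 20 mM library 2 (0.0554) or any library at 35 mM (0.124, 0.151 and 0.101), and with acinar content as a covariate (0.53, adjusted p = 0.125). The translocon subunit Sec61g had 0.49 ± 0.14 (adjusted p = 0.105) and the signal peptidase subunit Spcs1 0.45 ± 0.13 (adjusted p = 0.107).

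Of 31 tested genes of the unfolded protein response and folding in the endoplasmic reticulum, 23 were above 0 (median 0.16). Fkbp11, a prolyl isomerase of secretory cells, was the 1 that rose (3.23% against 0.626% of all genes tested). Fkbp11 stood at 17.3, 18.5 and 11.9 CPM at 11.8 mM and 27.6, 27.6 and 25.6 at 35 mM (0.75 ± 0.19; adjusted p = 0.0483). This call sits at the threshold and was kept in 5 of 19 alternatives, being lost without 11.8 mM library 3 (0.58, adjusted p = 0.294) and without any library at 20 or 35 mM (0.0577 to 0.192), and with acinar content as a covariate (0.125). The chaperone gene Hsp90b1 had 0.37 ± 0.12 (adjusted p = 0.213). Bace2, a beta secretase that cuts proteins of the beta cell surface, was nearly constant within a concentration at 201.7, 197.2 and 206.5 CPM against 310.7, 321.7 and 326.4. The rise of Bace2 was 1.58-fold (0.66 ± 0.12; adjusted p = 0.00265) and held in all alternatives. It was the 1 of 16 tested secretases and amyloid precursor genes that rose, and none fell (6.25% against 0.626% of all genes tested; median 0.12). Cltrn, a cleaved substrate of Bace2, had 0.29 ± 0.13 (adjusted p = 0.398). H13, a signal peptide peptidase, also rose (0.75), with the call lost without 11.8 mM library 3 (0.58, adjusted p = 0.0743) or 35 mM library 1 (0.68, adjusted p = 0.0653). An antisense gene overlaps exons of H13. Exocytosis genes showed no called change among 23 tested (9 above 0, 14 below; median -0.05). The nearest to a call was Rab37, a small GTPase, at -1.21 ± 0.36 (adjusted p = 0.134), followed by Syt4, a synaptotagmin, at 0.31 ± 0.13 (adjusted p = 0.364).

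Receptors, transporters and channels at the cell surface were also among the called genes. Tacr3, the neurokinin B receptor, had 6.66, 7.18 and 4.95 CPM at 11.8 mM and 19.9, 19.5 and 13.9 at 35 mM (1.49 ± 0.25; adjusted p = 7.84e-04). It was the 1 of 19 tested islet G protein coupled receptors that rose, and none fell (5.26% against 0.626% of all genes tested; median 0.20). Ptger3, a prostaglandin E2 receptor, had 1.86 ± 0.58 (adjusted p = 0.162). Slco1a5, an organic anion transporter, stood at 6.66, 7.18 and 12.2 CPM against 29.2, 24.1 and 25.8 (1.62 ± 0.23; adjusted p = 6.7e-05). Slc7a3, which carries arginine and lysine into cells, had 8.26, 6.48 and 6.99 CPM at 11.8 mM and 23.1, 21.2 and 14.2 at 35 mM (1.43 ± 0.24; adjusted p = 9.26e-04). Slc7a3 alone passed among 23 tested amino acid transporters (4.35% against 0.626% of all genes tested for rises), of which 16 were above 0 (median 0.11). Slc7a1, its broadly expressed relative, had 0.41 ± 0.16 (adjusted p = 0.314) and Slc38a10 had 0.37 ± 0.14 (adjusted p = 0.285). Tacr3, Slco1a5 and Slc7a3 kept their calls in all alternatives. Slco1a5 belongs to a family of near-identical copies, so its reads may be shared among them.

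Aqp4, a water channel, stood at 14.9, 17.4 and 23.6 CPM at 11.8 mM and at 65.2, 41.8 and 46.3 at 35 mM, with library 1 the highest of the latter. It rose by 1.46 ± 0.20 (adjusted p = 6.7e-05) and kept the call in all alternatives. Aqp4 was the 1 of 9 tested osmotic response genes that rose, and none fell (11.1% against 0.626% of all genes tested; 4 above 0 and 5 below; median -0.02). Hspa4l, an osmotically induced chaperone, had 0.35 ± 0.17 (adjusted p = 0.476), and Nfat5, the transcription factor of the osmotic response, -0.13 ± 0.18 (adjusted p = 0.88). Gucy2c, the guanylin receptor, rose by 0.87 ± 0.16 (adjusted p = 0.0029), a call lost without 35 mM library 1 (0.77, adjusted p = 0.0512). Ceacam1, an adhesion receptor, had 3.46, 6.94 and 6.99 CPM against 18.0, 9.0 and 15.6 (1.29 ± 0.31; adjusted p = 0.0325). Its call was kept in 11 of 19 alternatives and lost without 11.8 mM library 1 (1.03, adjusted p = 0.114) or 3 (0.072) and without 35 mM library 1 (1.08, adjusted p = 0.258) or 3 (0.115), and with acinar content as a covariate (0.102). Tnfrsf23, a decoy death receptor, had 11.7, 11.8 and 5.83 CPM against 30.3, 24.1 and 21.6 (1.35 ± 0.23; adjusted p = 8.44e-04) and kept the call in all alternatives. It is overlapped by an antisense gene and has near copies in its family. It was the 1 of 21 tested p53 target and apoptosis genes that rose, and none fell (4.76% against 0.626% of all genes tested; median -0.03).

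Dusp6, a phosphatase that switches off ERK and is itself induced by ERK signalling, rose from 3.20, 2.78 and 2.91 CPM at 11.8 mM to 8.05, 8.71 and 9.09 at 35 mM. The 3 libraries of each concentration were close and stood on 10 to 12 and 30 to 32 reads, and the 20 mM libraries lay between at 5.54, 6.57 and 5.36 CPM. Its log2 fold change was 1.53 ± 0.31 (adjusted p = 0.00728), a call kept in all 18 alternatives that tested it. Igf1r, the receptor for insulin-like growth factor 1, had 158.3, 151.8 and 150.3 CPM against 227.3, 233.1 and 224.4 (0.57 ± 0.14; adjusted p = 0.0444). The call of Igf1r was lost without 11.8 mM library 2 (adjusted p = 0.0962) or 3 (0.156), 20 mM library 3 (0.0526) or any library at 35 mM (0.163, 0.18 and 0.0936) and with acinar content as a covariate (0.0513), though the value stayed at 0.55 to 0.62. These were the 2 of 15 tested ERK feedback and insulin-family receptor genes that rose (13.3% against 0.626% of all genes tested), and none fell (median 0.26). Etv5, a transcription factor induced by ERK, had 0.75 ± 0.22 (adjusted p = 0.131), and Insr, the insulin receptor, -0.85 ± 0.38 (adjusted p = 0.426).

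Enzymes of polyamine and proline synthesis rose in 3 of 18 tested genes, and none fell (16.7% against 0.626% of all genes; median 0.10). Pycr1, which makes proline in mitochondria, had 29.6, 24.1 and 22.1 CPM at 11.8 mM and 48.0, 49.1 and 49.1 at 35 mM (0.95 ± 0.16; adjusted p = 8.44e-04), and held in all alternatives. Odc1, ornithine decarboxylase, the rate-limiting enzyme of polyamine synthesis, had 37.6, 45.1 and 34.1 CPM against 75.4, 51.7 and 55.7 (0.64 ± 0.16; adjusted p = 0.0444). Srm, spermidine synthase, stood at 65.8, 53.5 and 44.3 CPM against 90.7, 84.2 and 77.5 (0.62 ± 0.15; adjusted p = 0.0317). These 2 calls were less firm. That of Odc1 was lost without 11.8 mM library 1 (adjusted p = 0.0705) or 3 (0.226), 20 mM library 1 (0.056) or 2 (0.0554), or 35 mM library 1 (0.46, adjusted p = 0.42) or 3 (0.0617), and with acinar content as a covariate (0.145). That of Srm was lost without 11.8 mM library 2 (adjusted p = 0.0858) or 3 (0.227) or 35 mM library 1 (0.204) or 2 (0.123), and with the acinar covariate (0.0767). Aldh18a1, the enzyme before Pycr1, had 0.35 ± 0.16 (adjusted p = 0.455). None of 23 integrated stress response and serine synthesis genes passed (17 above 0; median 0.14), with Phgdh, the first enzyme of serine synthesis, at 0.89 ± 0.25 (adjusted p = 0.0879) and Shmt2, a mitochondrial serine enzyme, at 0.47 ± 0.14 (adjusted p = 0.142).

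A large rise was that of Dlk1, an imprinted gene for a transmembrane protein related to Notch ligands, on chromosome 12 at 109452823 to 109463336 (GRCm38, plus strand). Dlk1 had 9.86, 7.18 and 10.5 CPM at 11.8 mM, 16.6, 11.4 and 18.9 at 20 mM and 49.1, 53.1 and 42.9 at 35 mM. The increase was 5.30-fold (2.41 ± 0.21; adjusted p = 8.65e-09), on 31 to 37 reads at 11.8 mM and 151 to 183 at 35 mM, and held in all alternatives. On the list of imprinted genes used here, 20 were tested, 10 of them above 0 and 10 below (median 0.02). Zim1, an imprinted zinc finger gene, was its other called member (5% rose and 5% fell, against 0.626% and 0.236% of all genes tested). Zim1 had 35.2, 28.7 and 39.6 CPM against 20.9, 17.1 and 23.9 and fell by 0.73 (adjusted p = 0.0444). This call was kept in 6 of 19 alternatives and was lost in 8 of the 9 fits without 1 library, the exception being that without 11.8 mM library 2 (highest adjusted p = 0.28, without 35 mM library 2). With acinar content as a covariate it was lost too (0.142). Gnas, an imprinted G protein gene, had 0.44 ± 0.13 (adjusted p = 0.138), and Peg3, the neighbour of Zim1, -0.42 ± 0.14 (adjusted p = 0.197).

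Rspo4, an R-spondin that amplifies Wnt signals, stood at 6.66, 9.26 and 7.87 CPM at 11.8 mM and 25.2, 19.2 and 11.9 at 35 mM, with the latter group widely spread (1.24 ± 0.25; adjusted p = 0.00728). Without 35 mM library 1 the value was 0.96 (adjusted p = 0.162). Rspo4 and Dlk1 were the 2 of 15 tested Wnt and Notch ligands and regulators that rose (13.3% against 0.626% of all genes tested), and none fell (median 0.10). Dapl1, a small protein of little known function in islets, had 62.4, 44.7 and 39.6 CPM at 11.8 mM and 137.4, 160.8 and 157.4 at 35 mM. The 20 mM libraries, at 134.3, 164.8 and 117.0 CPM, covered the same levels as those at 35 mM. Dapl1 rose by 1.63 ± 0.16 (adjusted p = 1.09e-07) and held in all alternatives. Col27a1, a fibrillar collagen, rose by 1.03 ± 0.16 (adjusted p = 6.15e-04), Hap1, a huntingtin-associated protein of neuroendocrine cells, by 0.83 ± 0.13 (adjusted p = 6.15e-04) and Lama3, a laminin chain of basement membranes with an overlapping antisense gene, by 2.10 ± 0.36 (adjusted p = 0.00207). Lama3 was counted on 2 to 21 reads a library at 11.8 mM, and these 3 genes kept their calls in all alternatives. Wipi1, a protein of early autophagosomes, had 45.8, 41.4 and 39 CPM against 74.1, 83.3 and 76.7 (0.89 ± 0.14; adjusted p = 6.15e-04), a rise kept in all alternatives. Calcoco1, an autophagy receptor, moved the other way, from 24.5, 29.2 and 28.5 CPM to 15.0, 13.9 and 14.8 (-0.91 ± 0.19; adjusted p = 0.0075), with the call lost without 35 mM library 2 (adjusted p = 0.0567). Of 29 tested lysosome and autophagy genes these were the ones called (3.45% rose and 3.45% fell, against 0.626% and 0.236% of all genes tested; 10 above 0, 19 below; median -0.07).

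Of the other rises, those of Tcf24, a helix-loop-helix factor (1.70 ± 0.32), Nynrin (1.03 ± 0.19), Gsdma, a gasdermin (0.84 ± 0.14), and Dpm3, which anchors the synthase of a mannose donor for protein glycosylation (0.70 ± 0.14), kept their calls in every alternative that tested them. Antisense genes overlap exons of Tcf24 and Nynrin. Tcf24 stood on only 8 to 12 reads a library at 11.8 mM and 28 to 37 at 35 mM. Further rises lost their call without 1 or more single libraries, and their log2 fold changes follow. With acinar content as a covariate the calls of Slc25a40, Frmd5, Ovol2, Atp5mpl, Mycbp, Ybx3, Bscl2, Reep5, Cmas, Npepl1 and Lmo7 were lost as well. Slc25a40, a mitochondrial glutathione carrier, stood on only 2 to 7 reads a library at 11.8 mM and 12 to 18 at 35 mM. It rose by 2.02 and the call was lost without 11.8 mM library 1 or 3 or 35 mM library 2 or 3 (highest adjusted p = 0.169). Frmd5, a FERM domain protein, stood on 8 to 15 reads a library at 11.8 mM and 20 to 46 at 35 mM. Its rise was 1.46, lost without 11.8 mM library 2 or 3, 20 mM library 1 or 35 mM library 1 or 2 (highest adjusted p = 0.388). For Nptx2, a neuronal pentraxin, it was 1.21, lost without 11.8 mM library 3 or 35 mM library 1 or 3 (highest adjusted p = 0.144). Tent5a, a poly(A) polymerase, rose by 1.00 and the call was lost without 11.8 mM library 3 (adjusted p = 0.0502). The rise of Ovol2, a zinc finger factor of epithelia, was 0.83, lost without 11.8 mM library 2 or 3, any library at 20 mM or any library at 35 mM (highest adjusted p = 0.224). For Pappa2, a protease that frees insulin-like growth factors from their binding proteins, it was 0.74, lost without 11.8 mM library 2 or 3 or 35 mM library 1 or 2 (highest adjusted p = 0.159). Atp5mpl, a small subunit of ATP synthase, rose by 0.73 and the call was lost without 11.8 mM library 1 or 3 or 35 mM library 1 or 3 (highest adjusted p = 0.153). The rise of Mycbp, a Myc-binding protein, was 0.73, lost without 11.8 mM library 3 or any library at 35 mM (highest adjusted p = 0.15). For Shisa5, a protein of the endoplasmic reticulum, it was 0.70, lost without 11.8 mM library 3 (adjusted p = 0.0569). Dmpk, the myotonic dystrophy kinase, rose by 0.68 and the call was lost without 11.8 mM library 2 or 3 or 35 mM library 2 (highest adjusted p = 0.123). The rise of Ybx3, an RNA-binding cold shock protein, was 0.67, lost without 11.8 mM library 3 or 35 mM library 1 or 2 (highest adjusted p = 0.148). For Ubr4, a ubiquitin ligase, it was 0.66, lost without 11.8 mM library 3 or 35 mM library 1 or 2 (highest adjusted p = 0.081). Bscl2, the lipid droplet protein seipin, rose by 0.57 and the call was lost without 11.8 mM library 2 or 3, 20 mM library 2 or 35 mM library 1 or 2 (highest adjusted p = 0.251). The rise of Gng12, a G protein gamma subunit, was 0.57, lost without 11.8 mM library 3 or any library at 35 mM (highest adjusted p = 0.0652). For Reep5, a shaper of endoplasmic reticulum tubules, it was 0.56, lost without 11.8 mM library 2 or 3, 20 mM library 2 or 35 mM library 1 or 3 (highest adjusted p = 0.258). Cmas, which activates sialic acid, rose by 0.53 and the call was lost without 11.8 mM library 1 or 3, 20 mM library 2 or any library at 35 mM (highest adjusted p = 0.141). The rise of Npepl1, an aminopeptidase-like protein, was 0.53, lost without 11.8 mM library 1 or 2, any library at 20 mM or 35 mM library 1 or 2 (highest adjusted p = 0.307). For Lmo7, a junction protein, it was 0.51, lost without any library at 11.8 mM, 20 mM library 2 or 3 or any library at 35 mM (highest adjusted p = 0.185). Pappa2, Ubr4 and Bscl2 share exons with genes on the same strand, and Ovol2, Mycbp, Bscl2 and Gng12 with antisense genes, which makes their counts uncertain.

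Ttr, transthyretin, a carrier protein that is abundant in alpha cells, had 910.1, 961.8 and 939.8 CPM at 11.8 mM and 1280.5, 1496.7 and 1708.4 at 35 mM (0.67 ± 0.13; adjusted p = 0.00527). Without 35 mM library 3 the value was 0.57 (adjusted p = 0.0617). The other 5 tested alpha cell markers were below 0 and did not pass, with Gcg, the glucagon gene, at 16856.3, 16540.1 and 15502.2 CPM against 13316.0, 13184.9 and 14850.0 (-0.24 ± 0.13; adjusted p = 0.556) in libraries that did not overlap.

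Among 23 falls, Cib3, a calcium and integrin binding protein, had the largest at a mean of 10 CPM or more. It had 20.8, 15.3 and 21.0 CPM at 11.8 mM and 7.51, 4.06 and 4.26 at 35 mM, and the 20 mM libraries, at 8.93, 8.09 and 7.33 CPM, were already low. The log2 fold change was -1.83 ± 0.26 (adjusted p = 1.1e-04). Cib3 and Junb were the 2 falls that kept their calls in all alternatives.

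**Figure D4:**
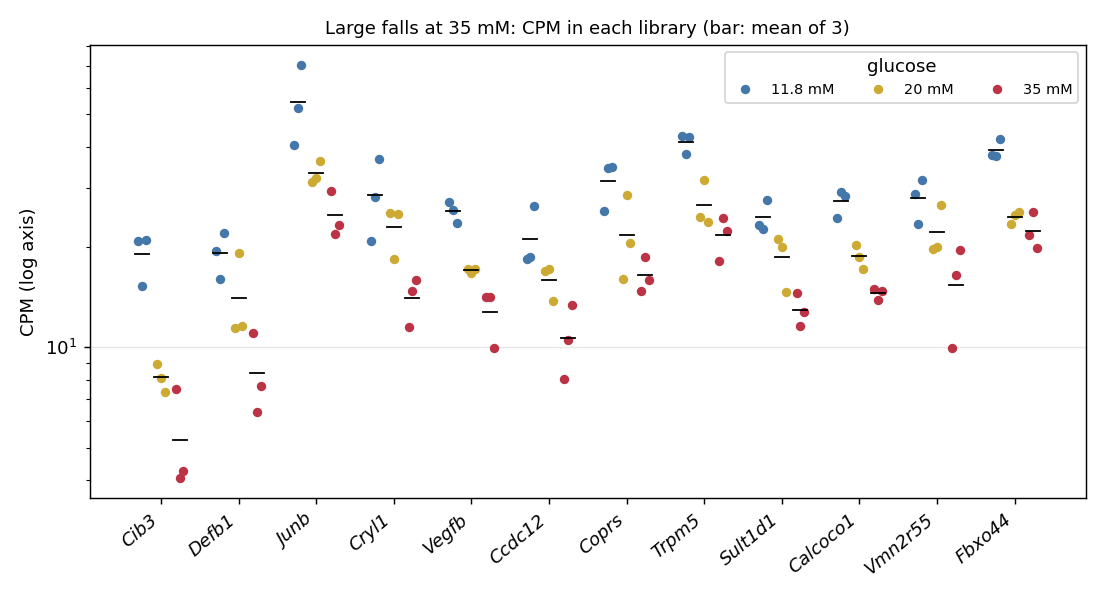
CPM (log axis) of the largest called falls at a mean of 10 CPM or more, one point for each library at 11.8, 20 and 35 mM. The 35 mM libraries lie below the 11.8 mM libraries in every gene drawn, for example Cib3 at 4.06 to 7.51 against 15.3 to 21.0 CPM.

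Junb, an immediate early transcription factor of the AP-1 family, had 40.5, 52.3 and 70.2 CPM at 11.8 mM and 29.5, 21.8 and 23.3 at 35 mM. The 11.8 mM libraries were spread, yet all lay above those at 35 mM, and the log2 fold change was -1.12 ± 0.18 (adjusted p = 6.15e-04). An antisense gene overlaps exons of Junb. Btg2, an antiproliferative gene of the same class, had 30.4, 28.9 and 46.6 CPM against 23.3, 20.9 and 17.6 (-0.77 ± 0.19; adjusted p = 0.0444). The call of Btg2 was lost without 11.8 mM library 3 (-0.53, adjusted p = 0.358) and without any library at 20 or 35 mM (0.0521 to 0.206). It was kept in 6 of 19 alternatives, and was lost also in the fits with DESeq2 (0.063 and 0.0655), with the 6 libraries alone (0.0792), with acinar content as a covariate (-0.67, adjusted p = 0.147) and without 2 sub-libraries (0.153). These were the 2 of 17 tested immediate early genes that fell (11.8% against 0.236% of all genes tested), and none rose (4 above 0, 12 below; median -0.19). Egr1, a zinc finger factor induced by growth stimuli, had 17.3, 26.9 and 42.5 CPM against 11.8, 11.3 and 13.1 and missed the threshold narrowly (-1.25 ± 0.29; adjusted p = 0.0517). Nr4a2, an orphan nuclear receptor, had 5.86, 2.31 and 3.20 CPM against 10.5, 5.23 and 10.5, which overlap (1.21 ± 0.35; adjusted p = 0.115).

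Vegfb, a growth factor of the VEGF family that signals to Flt1, had 27.2, 25.9 and 23.6 CPM at 11.8 mM, 17.2, 16.7 and 17.2 at 20 mM and 14.2, 14.2 and 9.94 at 35 mM. It fell to 0.501 of its level (-1.0 ± 0.20; adjusted p = 0.00571), with the call lost without 35 mM library 3 (-0.84, adjusted p = 0.0617). Vegfa had -0.12 ± 0.13 (adjusted p = 0.838). Vegfb was the 1 of 8 tested VEGF ligands and angiogenic factors that was called (12.5% against 0.236% of all genes tested), with 7 below 0 (median -0.26). Flt1, a receptor for Vegfb, had 4.80, 6.48 and 5.54 CPM against 0.805, 3.19 and 2.56 (-1.37 ± 0.44; adjusted p = 0.18), libraries that do not overlap and that did not pass. Beside this, the summed share of endothelial markers was 0.00154% to 0.00171% of gene counts at 11.8 mM and 0.000976% to 0.00121% at 35 mM, ranges that did not overlap. Of its 8 genes, Flt1 among them, 3 were tested, all with a negative value. Tek was at 0 in all libraries at 11.8 mM and Kdr in all libraries at 35 mM. Flt1 is itself one of the 3 tested, so its own reads are part of the share. The share is therefore not a separate measure beside Flt1, and it was not computed without that gene. The part of endothelial cells in the values of Flt1 and Vegfb was not tested.

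Trpm5, a cation channel opened by calcium that lets beta cells depolarise further, had 43.2, 38 and 42.8 CPM at 11.8 mM and 18.2, 24.4 and 22.4 at 35 mM. It fell by 0.93 (adjusted p = 0.00323), with the call lost narrowly without 35 mM library 1 (-0.82, adjusted p = 0.0544), and an antisense gene overlaps its exons. Trpm5 was the 1 of 18 tested genes of glucose sensing and excitability that was called (5.56% against 0.236% of all genes tested for falls; 7 above 0, 11 below; median -0.07). G6pc2, which hydrolyses glucose 6-phosphate in beta cells, had 1012.5, 1354.3 and 1616.0 CPM against 1821.4, 2073.3 and 2065.1 (0.58 ± 0.16; adjusted p = 0.0814), and Slc2a2, the main glucose transporter of mouse beta cells, had 99.9, 90.7 and 137.2 against 83.7, 91.5 and 94.0 (-0.28 ± 0.15; adjusted p = 0.542).

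In metabolism, Idh2, the mitochondrial NADP-dependent isocitrate dehydrogenase, had 30.9, 42.4 and 44.0 CPM at 11.8 mM and 21.5, 24.1 and 23.3 at 35 mM (-0.77 ± 0.18; adjusted p = 0.0228). The Idh2 call was lost without 11.8 mM library 2 (adjusted p = 0.0858) or 3 (0.144) or any library at 35 mM (0.158, 0.082 and 0.0752), and with acinar content as a covariate (0.0561). It was the 1 of 26 tested genes of NADPH and pyruvate cycling that fell, and none rose (3.85% against 0.236% of all genes tested; 17 above 0; median 0.08). Gstm1, a glutathione transferase with near copies in its family, had 147.6, 159.0 and 169.8 CPM against 111.1, 114.4 and 97.4 (-0.56 ± 0.13; adjusted p = 0.0324). It lost its call without 11.8 mM library 2 (0.0665) or 3 (0.144), 20 mM library 2 (0.0553) or any library at 35 mM (0.126, 0.0998 and 0.18), and with acinar content as a covariate (0.0909). Gstm1 was the 1 of 34 tested antioxidant and glutathione genes that fell, and none rose (2.94% against 0.236% of all genes tested; median 0.02). Cryl1, an enzyme of sugar acid metabolism, had 20.8, 28.2 and 36.7 CPM against 11.5, 14.8 and 15.9 (-1.02 ± 0.21; adjusted p = 0.0101). Its call was lost without 11.8 mM library 3 (-0.81, adjusted p = 0.13) or 35 mM library 1 (-0.89, adjusted p = 0.126).

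Defb1, an antimicrobial defensin, had 19.5, 16.0 and 22.1 CPM at 11.8 mM and 11.0, 6.39 and 7.67 at 35 mM (-1.18 ± 0.25; adjusted p = 0.0106), with the call lost without 11.8 mM library 3 (adjusted p = 0.0785) or 35 mM library 2 (0.117) or 3 (0.0617). Sult1d1, a sulfotransferase, stood at 23.2, 22.7 and 27.7 CPM against 14.5, 11.6 and 12.8 (-0.91 ± 0.20; adjusted p = 0.0165), lost without 11.8 mM library 3 (0.104) or 35 mM library 2 (0.123) or 3 (0.0694). Neither set of libraries overlapped. Ccdc12, a spliceosome protein, had 18.4, 18.7 and 26.5 CPM against 8.05, 10.5 and 13.4 (-0.99 ± 0.23; adjusted p = 0.0208), lost without 11.8 mM library 3 (0.184) or 35 mM library 1 (0.201) or 2 (0.0998) or with acinar content as a covariate (0.0712). Coprs, a partner of the arginine methyltransferase PRMT5, had 25.6, 34.5 and 34.7 CPM against 14.8, 18.6 and 15.9 (-0.94 ± 0.20; adjusted p = 0.0131), lost without 11.8 mM library 2 (0.0535) or 3 (0.0764) or 35 mM library 1 (0.124) or 3 (0.0617). In both genes 11.8 mM library 1 was the lowest of its group. Fbxo44, an F-box protein that marks others for breakdown, was even within each concentration, at 37.8, 37.5 and 42.2 CPM against 21.7, 25.5 and 19.9 (-0.81 ± 0.17; adjusted p = 0.00865), and was lost without 11.8 mM library 3 (0.0516) or 35 mM library 1 (0.0653) or 3 (0.0704). Vmn2r55, a vomeronasal-type receptor of a large gene family, had 28.8, 23.4 and 31.8 CPM against 9.93, 16.5 and 19.6 (-0.86 ± 0.22; adjusted p = 0.0444). Its call was kept in 8 of 19 alternatives, with a highest adjusted p of 0.382 without 35 mM library 1, and was also lost without 11.8 mM library 1 (0.0738) or 3 (0.207), 20 mM library 1 (0.057) or 2 (0.0581) or 35 mM library 2 (0.123), and with acinar content as a covariate (0.138).

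The remaining falls are given by their log2 fold changes, and with acinar content as a covariate their calls were lost except that of Pla2g7. Phyhip, a phytanoyl-CoA hydroxylase interacting protein, stood on 21 to 32 reads a library at 11.8 mM and only 6 to 9 at 35 mM. Its log2 fold change was -1.67, lost without 11.8 mM library 1 or 3 or any library at 35 mM (highest adjusted p = 0.151). That of Rnf227, a RING finger protein, was -1.24, lost without 11.8 mM library 3 or any library at 35 mM (highest adjusted p = 0.185). Pla2g7, a lipase that breaks down platelet-activating factor, had a log2 fold change of -0.76, lost without 11.8 mM library 2 or 35 mM library 2 or 3 (highest adjusted p = 0.123). That of Zdhhc2, a palmitoyltransferase, was -0.69, lost without 11.8 mM library 2 or 3 or 35 mM library 2 or 3 (highest adjusted p = 0.167). Enpp5, a membrane protein of the phosphodiesterase family, had a log2 fold change of -0.63, lost without 11.8 mM library 3 or any library at 35 mM (highest adjusted p = 0.218). That of Bpnt1, a nucleotide phosphatase, was -0.55, lost without any library at 11.8 mM, 20 mM library 2 or 3 or any library at 35 mM (highest adjusted p = 0.235). Antisense genes overlap exons of Pla2g7 and Zdhhc2.

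Several groups held no called gene. Of 23 tested beta cell transcription factors 9 were above 0 and 13 below (median -0.06), with Isl1 at -0.35 ± 0.14 (adjusted p = 0.336). Cell cycle and DNA replication genes were mostly below 0, in 21 of 31 tested (median -0.22), with Top2a, the mitotic topoisomerase, at -0.64 ± 0.19 (adjusted p = 0.132) and Cenpf, a kinetochore protein, at -0.96 ± 0.30 (adjusted p = 0.178). Of 30 nuclear genes of oxidative phosphorylation 22 were above 0 (median 0.11), led by Cycs, cytochrome c, at 0.51 ± 0.13 (adjusted p = 0.0606), whereas 11 of 13 mitochondrially encoded transcripts were below 0 (median -0.16; mt-Nd2 at -0.34 ± 0.15, adjusted p = 0.428). Fatty acid and cholesterol synthesis genes were above 0 in 21 of 29 (median 0.09; Sqle at 0.58 ± 0.20, adjusted p = 0.243), and proteasome subunits in 23 of 28 (median 0.10; Psmd12 at 0.49 ± 0.20, adjusted p = 0.343). In the hexosamine pathway 6 of 11 were above 0 (median 0.18; Nagk at -0.60 ± 0.18, adjusted p = 0.119). Clock genes were below 0 in 10 of 14 (median -0.16; Nr1d2 at -0.45 ± 0.16, adjusted p = 0.271), and interferon, antigen presentation and NF-kB genes in 11 of 19 (median -0.14; Psmb8 at -0.68 ± 0.24, adjusted p = 0.242).

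**Figure D5:**
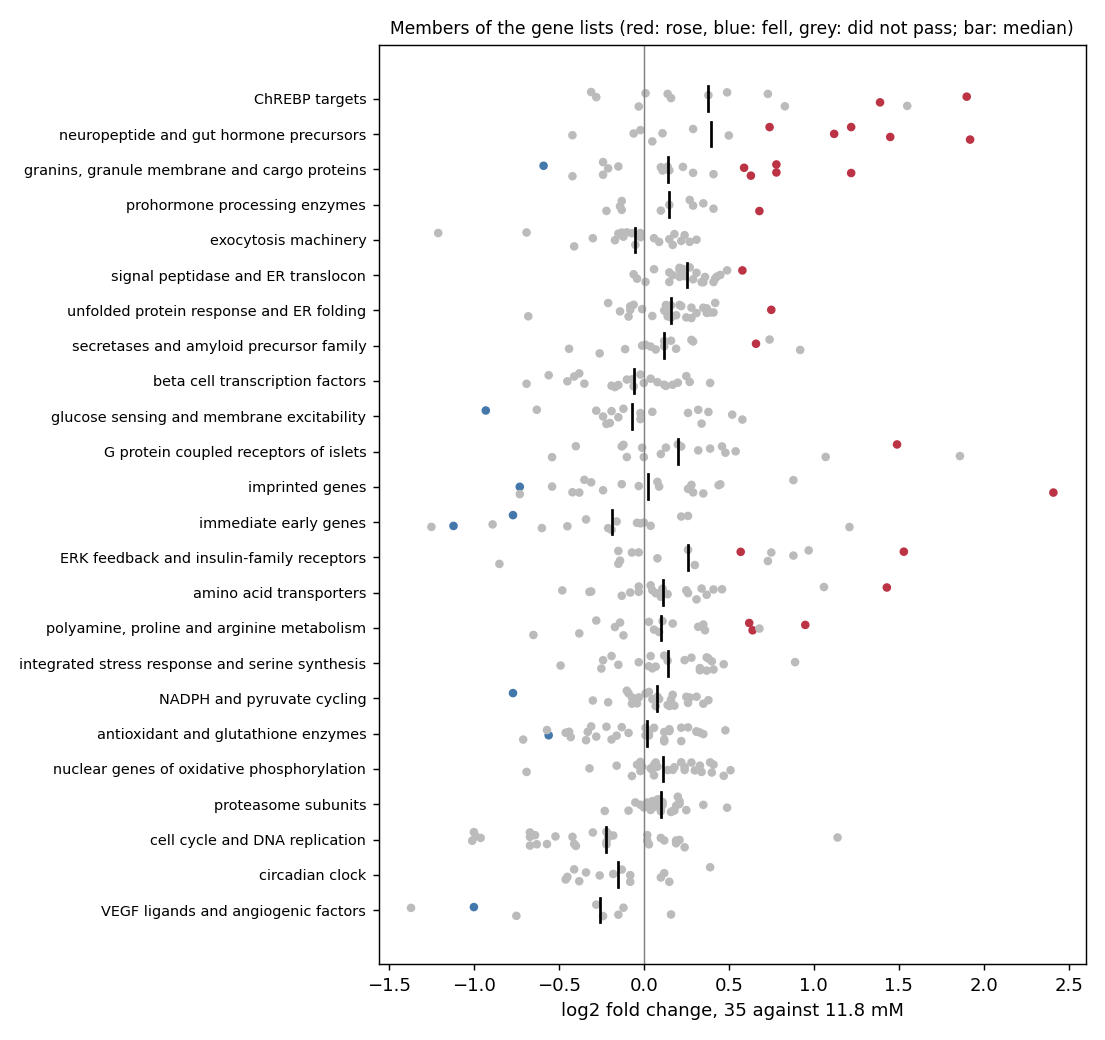
Log2 fold change (35 minus 11.8 mM) of every tested gene of 24 lists, cell type markers not included, with the list's median and the called genes marked. Among the lists drawn, medians run from -0.26 for VEGF ligands and angiogenic factors to 0.39 for neuropeptide and gut hormone precursors, against 0 for all genes tested.

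Markers of other cells held no called gene either. Fibroblast and stellate markers were below 0 in 8 of 10 tested (median -0.40; Col1a2 at -0.60 ± 0.20, adjusted p = 0.258) and macrophage and immune markers in 8 of 10 (median -0.37; Fcer1g at -0.94 ± 0.28, adjusted p = 0.138). Acinar markers were above 0 in 13 of 19 (median 0.16; Cuzd1 at 1.06 ± 0.43, adjusted p = 0.369), with 0 of 19 free of overlap (against 14.9% of all genes tested). Of 6 tested duct markers 4 were above 0 (median 0.24; Krt7 at 0.44 ± 0.14, adjusted p = 0.151). Of 7 tested beta cell markers Iapp was the 1 called (14.3% against 0.626% of all genes tested for rises; median 0), and of 3 delta markers 2 were below 0 (median -0.32). The delta hormone gene Sst had 0.14 ± 0.15 and Ppy -0.01 ± 0.17, neither of which passed. Neural and Schwann markers were above 0 in 2 of 4 tested (median 0.17).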

How the data were processed

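Islet RNA (3 ng a sample) was made into CEL-Seq2 libraries with a 6-base molecular identifier (UMI), per the labels' protocols. The authors deposited raw read counts for each gene in each barcoded sub-library. Per the submitters' processing notes, cutadapt, TopHat and HTSeq were used with the genome GRCm38.p4. Which versions, annotation and counting strand were used is not given in the sources used here. UMIs were not collapsed: a gene reached 605402 counts in a sub-library although only 4096 UMIs exist. The read numbers given are therefore not numbers of molecules, and they may understate the counting error. The 3 sub-libraries of each sample were tied to it through the deposited sample sheet and summed. Another count table and a table of normalized values were not used here, because 30 columns could not be tied to these samples. ERCC spike-ins (92) and 5 summary lines, which held 19.6% to 29.9% of counted reads, were left out. Symbols were matched by Ensembl identifier in GENCODE M21 for 21858 of 22048 genes.

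The fit used edgeR 4.0.16 in R 4.3.3 with TMM, filterByExpr by group and the robust quasi-likelihood test, and a coefficient per concentration, fitted to 9 libraries with 6 residual degrees of freedom. Calls required an adjusted p under 0.05 (Benjamini-Hochberg, 9739 genes). An exact permutation test of 3 against 3 libraries cannot go below p = 0.1. Scripts were tested on simulated data. Alternatives were DESeq2 1.42.0, other scaling and filters, a replicate block, the 6 libraries alone, an acinar covariate, omission of 2 sub-libraries and omission of each library.

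Any called gene could be named, predicted genes and pseudogenes excepted. Values in every library were given for the 12 largest rises and 12 largest falls at a mean of at least 10 CPM and for up to 6 called members of each list, and of a list with no call the 2 members with the smallest p were eligible. Members and lists were chosen with earlier results of these data known, so they are not independent evidence. Other genes set as values beside a list were chosen after their values were seen. Some genes that the rule names are not reported here and remain in the counts. Upstream sequences are from RefSeq on GRCm38.p6.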

Additional observations from a re-analysis of the deposited data

How the results depend on the processing

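There were 19 alternatives, some of which also changed the set of genes tested. The counts of 61 rises and 23 falls became 95 and 53 without the expression filter, and 43 and 14 with acinar content as a covariate, where 41 of the 61 and 11 of the 23 were still called. Leaving out 1 library gave 33 to 92 rises and 8 to 46 falls. The lowest of each came without 35 mM replicate 1 and the highest without 11.8 mM replicate 1, while omission of 11.8 mM replicate 3 gave 37 and 10 and of 35 mM replicate 2 gave 41 and 13. Of the 23 falls, 6 were still called without 11.8 mM replicate 3, 8 without 35 mM replicate 1 and 7 each without 35 mM replicate 2 or 3. The log2 fold change of Ins1 was -0.01 without 2 sub-libraries, those with the low share of Ins1 or Ins2 named above. That of Sst ran from -0.02 (without 11.8 mM replicate 3) to 0.28, and that of Ppy from -0.13 to 0.25, being above 0 without 11.8 mM replicate 2 (0.25) or 35 mM replicate 1 (0.07) or 2 (0.03). The cause of these shifts was not tested.

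With the replicate number as a block, 53 genes rose and 21 fell. Same-numbered libraries deviated together only weakly (correlations of 0.04, -0.02 and -0.02), and 1 of the 3 correlated best with its own number. The labels do not say what same-numbered samples share, and these correlations cannot settle it. DESeq2 with its own filtering called 73 rises and 20 falls, and edgeR on the 6 libraries alone 46 and 20. Scaling alternatives moved the median of all genes by at most 0.011 on the log2 scale. Over all genes tested, log2 fold changes had a median standard error of 0.248. In highly counted genes such as Iapp and Chgb it was 0.13. The smallest called change was 0.51, so smaller changes may have been missed.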

Other observations

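Some called genes lie close together on the genome (GRCm38, GENCODE M21), and the values are given with no test. Iapp, the amylin gene, lies on chromosome 6 at 142298423 to 142303961 within the span of Slco1a5 (142234227 to 142322981) on the opposite strand, and both rose. The stretch holds no exon overlap between them, and their log2 fold changes were 0.63 and 1.62. Gast and Hap1 lie on chromosome 11 with starts 22 kb apart, on opposite strands, and rose by 1.45 and 0.83. Ptprn and Resp18, whose products are related in sequence, lie on chromosome 1 with starts 14 kb apart on the same strand and were called in opposite directions, at 0.78 and -0.59. Trpm5 (-0.93) and Tnfrsf23 (1.35) lie 591 kb apart on chromosome 7, and Fbxo44 (-0.81) and Srm (0.62) 431 kb apart on chromosome 4, likewise in opposite directions. Of all called genes, 10 pairs lay within 1 Mb of each other. Counting strand is not given in the sources used here, so reads of close neighbours on opposite strands may be shared.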
